A study of Mus musculus with 6 samples.

Results

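The genes for the IL-12, IL-23, IL-27 and IL-15 cytokines were followed in bulk RNA-seq of MHCII hi cells that had been sorted from the muscularis externa (ME) of the small bowel into a CX3CR1- and a CX3CR1+ population. The members were Il12a, Il12b, Il23a, Il27, Ebi3, Il15, Il15ra and Il22ra2, and 7 of these 8 symbols matched a row among the 26110 genes of the deposited table. Il22ra2, the soluble decoy receptor for IL-22, was not analysed here.

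These cytokines pass signals from myeloid cells to lymphocytes. IL-12 and IL-23 share the beta chain encoded by Il12b, which pairs with the Il12a product to form IL-12 and with the Il23a product to form IL-23. IL-27 is built from the related beta chain encoded by Ebi3 and the alpha chain encoded by Il27, and a receptor for it contains the chains encoded by Il27ra and Il6st. IL-15 is presented in trans by the IL-15 receptor alpha chain (Il15ra) on myeloid cells to neighbouring NK cells and memory T cells, which read it through the chains encoded by Il2rb and Il2rg. In the intestine, IL-12 favours IFN-gamma responses, IL-23 favours IL-17 and IL-22 responses, and IL-27 can restrain T cells and raise their IL-10.

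The comparison asked how the transcriptomes of the sorted populations differed, with 3 libraries for MHCII hiCX3CR1- cells and another 3 for the MHCII hiCX3CR1+ population. Both came from untreated mice of the CX3CR1+/GFP genotype, in which GFP placed in a Cx3cr1 allele marks cells that use this locus. Sample labels name the sorted cells dendritic cells whereas the study treats them as macrophages, and tissue of several mice per group was pooled without a statement on whether each library had its own pool. Libraries were therefore the replicates (n = 3 per group), and p-values measure the spread between libraries, which may be technical. The mice were females on the C57BL/6 background, and their age is not given in the sources used here.

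The deposited values were normalized between libraries and are called expression values here. Approximate reads assigned to genes, read from the value of 1 read in each library, were 11927368, 6517535 and 11331837 in MHCII hiCX3CR1- replicates 1, 2 and 3. In MHCII hiCX3CR1+ replicates 1, 2 and 3 they were about 17616748, 10014168 and 5346379, and the groups were not separated by depth. The value of 3 reads, the floor under which a transcript was read as not measurable, was between 1.39 and 5.36 on the expression scale and covers counting error only. Mitochondrially encoded genes took 51.7 ± 3.76% (SD, n = 3) of the total in MHCII hiCX3CR1- cells and 19.6 ± 1.55% (SD, n = 3) in MHCII hiCX3CR1+ cells, and their part in the results below was not tested.

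The members were expressed at low to moderate levels, and most did not separate the populations. Testing took in genes whose mean over the 6 libraries was 10 or more, and a call needed a log2 fold change of 1 or more in size and an adjusted p of 0.05 or less (limma). Of the 5 tested members, Ebi3 was called and was lower in MHCII hiCX3CR1- cells, 0 were called higher, and 4 were not called. For all 17812 tested genes, 20.4% were called, 12.2% as higher and 8.15% as lower in MHCII hiCX3CR1- cells, so 1 of 5 was close to the share of all genes. The groups did not overlap for 1 of the 5 tested members, against 40% of all tested genes. The median log2 fold change was 0.24 for the 5 tested members and -0.0035 for all tested genes. Il12a and Il27 were under the mean for testing and are given by their values. In bulk RNA, a smaller number of expressing cells and less RNA per cell cannot be told apart, and this applies to every difference given here.

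**Figure D1:**
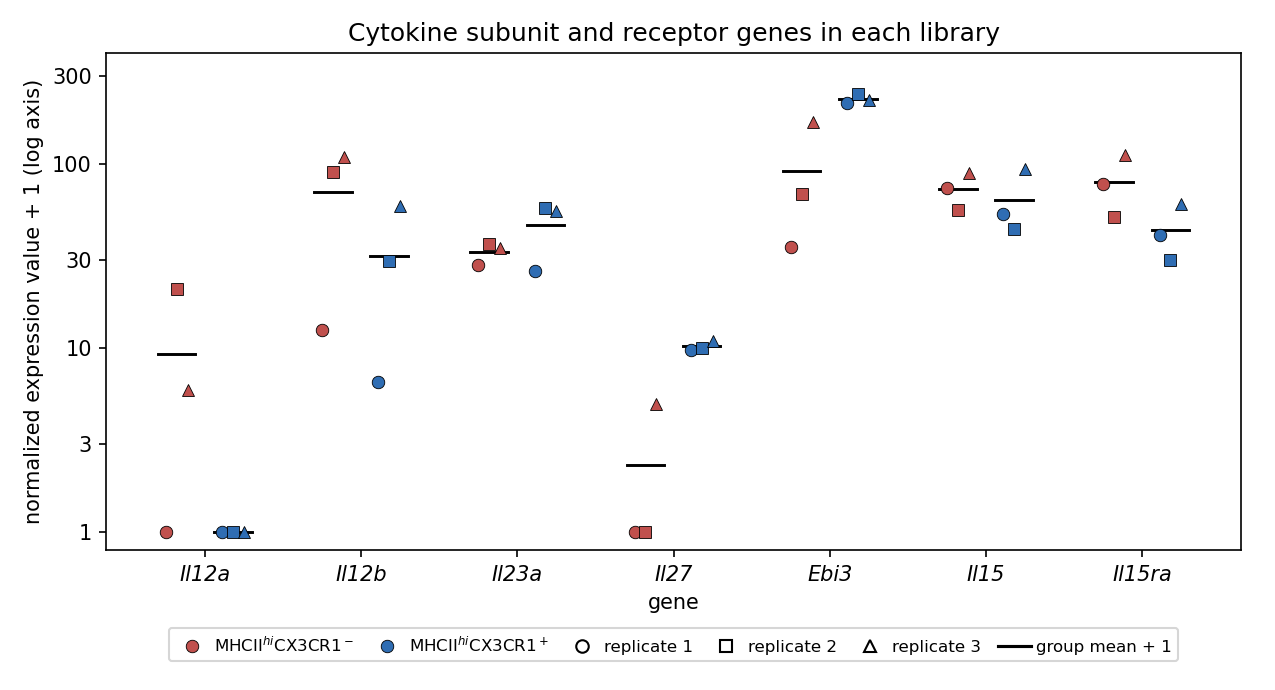
Expression value plus 1 (log axis) of the 7 matched members in each of the 6 libraries. Symbols mark the replicates, colours the populations, and horizontal bars the group mean plus 1. Ebi3 values of the MHCII hiCX3CR1+ libraries, from 214 to 239, all lie above those of the MHCII hiCX3CR1- libraries, from 34.4 to 168, whereas Il12b, Il23a, Il15 and Il15ra overlap.

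Il12a, on chromosome 3 (68690644 to 68698547, plus strand, GRCm38), encodes the alpha chain that is particular to IL-12. Its expression values were 0, 19.9 and 4.93 in MHCII hiCX3CR1- replicates 1, 2 and 3 and 0 in all 3 MHCII hiCX3CR1+ libraries. The transcript was thus seen in 2 libraries, both of MHCII hiCX3CR1- cells, from about 11.1 and 4.94 reads, while replicate 1 of the same population matched the MHCII hiCX3CR1+ libraries at 0. The mean of 8.28 ± 10.4 (SD, n = 3) in MHCII hiCX3CR1- cells was at least 3.07-fold higher than the mean value of 3 reads in the MHCII hiCX3CR1+ libraries, 2.70. This bound rests on replicate 2, since without it the mean of the MHCII hiCX3CR1- libraries was 2.46, under that floor. The groups overlapped at 0 (exact two-sided permutation test, p = 0.4, where 0.1 is the smallest p that 3 libraries against 3 allow). Il12a was not detectable at this depth in MHCII hiCX3CR1+ cells, which does not show that it is absent.

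Il12b, on chromosome 11 (44400063 to 44414033, plus strand), encodes the beta chain common to IL-12 and IL-23. Expression values of Il12b were 11.5, 89.4 and 108 in MHCII hiCX3CR1- replicates 1, 2 and 3, and 5.55, 28.7 and 58.1 in MHCII hiCX3CR1+ replicates 1, 2 and 3. The lowest value of each population was in its replicate 1, and the groups overlapped because MHCII hiCX3CR1- replicate 1 lay under 2 of the MHCII hiCX3CR1+ libraries. Means were 69.5 ± 51.1 and 30.8 ± 26.3 (SD, n = 3 each), a ratio of 2.26. The log2 fold change of 1.14 (SE 0.93, 95% interval -0.93 to 3.21) did not pass the limma test (adjusted p = 0.424), and the exact permutation p was 0.5. A difference of several fold in favour of MHCII hiCX3CR1- cells and a smaller difference in the other direction both lie within this interval. The estimate rested on single libraries, since it was 0.25 without MHCII hiCX3CR1+ replicate 1, 0.57 without MHCII hiCX3CR1- replicate 3, 0.71 without MHCII hiCX3CR1- replicate 2, 1.83 without MHCII hiCX3CR1+ replicate 3 and 2.13 without MHCII hiCX3CR1- replicate 1.

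Il23a, on chromosome 10 (128296139 to 128298752, minus strand), encodes the alpha chain of IL-23. Its expression values were 27.2, 35.9 and 33.9 in MHCII hiCX3CR1- replicates 1, 2 and 3, and 25.2, 56.6 and 54.7 in the MHCII hiCX3CR1+ replicates. MHCII hiCX3CR1+ replicate 1 was the lowest of all 6 libraries and the other MHCII hiCX3CR1+ libraries were the highest, so that the groups overlapped. The means, 32.3 ± 4.57 against 45.5 ± 17.6 (SD, n = 3 each), gave a log2 fold change of -0.40 (SE 0.41, 95% interval -1.31 to 0.50, limma adjusted p = 0.526), and the exact permutation p was 0.4. The difference was smaller than the spread of the MHCII hiCX3CR1+ libraries, and on leaving out each library the log2 fold change ranged from -0.77 without MHCII hiCX3CR1+ replicate 1 to -0.21 without MHCII hiCX3CR1+ replicate 2.

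Since both alpha chains need the Il12b product, levels of the subunit transcripts were set side by side per kilobase of transcript. The ratio of Il12b to Il23a per kilobase was 0.302, 1.78 and 2.27 in MHCII hiCX3CR1- replicates 1, 2 and 3. In MHCII hiCX3CR1+ replicates 1, 2 and 3 this ratio was 0.158, 0.363 and 0.759. Il23a thus exceeded Il12b in every MHCII hiCX3CR1+ library, and Il12b exceeded Il23a in 2 of the 3 MHCII hiCX3CR1- libraries, with replicate 1 of that population inside the range of the other.

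Il27, on chromosome 7 (126589010 to 126594941, minus strand), encodes the alpha chain of IL-27. Its expression values were 0, 0 and 3.99 in MHCII hiCX3CR1- replicates 1, 2 and 3, and 8.79, 9.02 and 9.92 in the MHCII hiCX3CR1+ replicates. All 3 MHCII hiCX3CR1+ libraries lay above all 3 MHCII hiCX3CR1- libraries, and the values of the former were close to each other. They came from few reads, about 19, 11 and 7 in MHCII hiCX3CR1+ cells and 4 in MHCII hiCX3CR1- replicate 3. Means were 1.33 ± 2.30 and 9.24 ± 0.595 (SD, n = 3 each), with an exact permutation p of 0.1. With MHCII hiCX3CR1- values under the floor of 3 reads set to that floor, the mean was at least 2.22-fold higher in MHCII hiCX3CR1+ cells. With no filter on low values, the log2 fold change of Il27 was -2.58 and its adjusted p was 0.0518 (limma, 26110 genes), which is not past the threshold. Exons of Il27 overlap those of Apobr, a lipoprotein receptor gene on the opposite strand, and 7.37% of the 31-mers of Il27 transcripts also occur in Apobr. Apobr itself was at 372 ± 37.9 in MHCII hiCX3CR1- and 218 ± 24.7 in MHCII hiCX3CR1+ cells (SD, n = 3 each), the reverse order of Il27.

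Ebi3, on chromosome 17 (55952640 to 55957022, plus strand), encodes the beta chain of IL-27. Its expression values were 34.4, 68.0 and 168 in MHCII hiCX3CR1- replicates 1, 2 and 3, and 214, 239 and 222 in the MHCII hiCX3CR1+ replicates. The groups did not overlap, the MHCII hiCX3CR1+ libraries were tightly grouped, and the MHCII hiCX3CR1- libraries were spread widely with replicate 3 nearest to the other population. The means were 90.0 ± 69.2 and 225 ± 12.7 (SD, n = 3 each), 2.50 times higher in MHCII hiCX3CR1+ cells. For Ebi3 the log2 fold change was -1.60 (SE 0.47, 95% interval -2.65 to -0.55), with a limma adjusted p of 0.0316, and all 3 MHCII hiCX3CR1- libraries showed this direction (exact permutation p = 0.1).

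The Ebi3 call lay close to its threshold, while its direction was the same in every alternative tried. Without MHCII hiCX3CR1- replicate 1 the log2 fold change was -1.07 and the adjusted p 0.0754, and without MHCII hiCX3CR1- replicate 2 they were -1.55 and 0.0693. Without MHCII hiCX3CR1- replicate 3, the log2 fold change was -2.19 and the adjusted p 0.00204. Leaving out MHCII hiCX3CR1+ replicate 1, 2 or 3 gave log2 fold changes of -1.64, -1.56 and -1.61, close to the -1.60 of all libraries. The adjusted p values were 0.0789, 0.0967 and 0.0920 (limma). With equal library totals after removal of mitochondrially encoded genes, Ebi3 had an adjusted p of 0.0577, and with no intensity trend 0.0919. Exons of Ebi3 also overlap those of Gm16712, an antisense gene, and 19.0% of its 31-mers occur there. Since the library kit does not mark strand, reads from this shared stretch cannot be told apart. Gm16712 was at 40.0 ± 25.5 in MHCII hiCX3CR1- and 63.7 ± 24.0 in MHCII hiCX3CR1+ cells (SD, n = 3 each), and its groups overlapped.

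Both IL-27 subunit transcripts therefore had lower values in all MHCII hiCX3CR1- libraries than in any MHCII hiCX3CR1+ library. Per kilobase, Ebi3 exceeded Il27 by ratios of 21.5, 23.4 and 19.8 in MHCII hiCX3CR1+ replicates 1, 2 and 3 and by 37.2 in MHCII hiCX3CR1- replicate 3. No ratio could be formed in the other MHCII hiCX3CR1- libraries, where Il27 was at 0. Set against the related beta chain, the ratio of Ebi3 to Il12b per kilobase was 4.95, 1.25 and 2.56 in MHCII hiCX3CR1- replicates 1, 2 and 3. In MHCII hiCX3CR1+ replicates 1, 2 and 3 it was 63.5, 13.7 and 6.31. Per kilobase, Ebi3 was the more abundant beta chain in all 6 libraries, and every MHCII hiCX3CR1+ ratio was above every MHCII hiCX3CR1- ratio. Not divided by length, Il12b (89.4) was above Ebi3 (68.0) in MHCII hiCX3CR1- replicate 2, from about 50 and 38 reads, so their order is not settled there.

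Il15, on chromosome 8 (82331632 to 82403222, minus strand), encodes the cytokine itself. Il15 was at expression values of 73.4, 55.3 and 87.8 in MHCII hiCX3CR1- replicates 1, 2 and 3, and 52.6, 43.6 and 92.6 in the MHCII hiCX3CR1+ replicates. Both the highest and the lowest library were MHCII hiCX3CR1+, and the groups overlapped fully. Means were 72.2 ± 16.3 and 62.9 ± 26.1 (SD, n = 3 each). The log2 fold change of 0.24 (SE 0.36, 95% interval -0.56 to 1.05) was smaller than the spread between libraries (limma adjusted p = 0.676, exact permutation p = 0.6). Under quantile normalization Il15 changed sign, to -0.017, and it ranged from 0.022 without MHCII hiCX3CR1+ replicate 2 to 0.56 without MHCII hiCX3CR1+ replicate 3 on leaving out each library.

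Il15ra, on chromosome 2 (11705290 to 11734317, plus strand), encodes the chain that presents IL-15. Expression values of Il15ra were 76.3, 50.5 and 110 in MHCII hiCX3CR1- replicates 1, 2 and 3, and 39.9, 29.2 and 59.3 in the MHCII hiCX3CR1+ replicates. The overlap came from a single pair of libraries, in that MHCII hiCX3CR1- replicate 2 lay under MHCII hiCX3CR1+ replicate 3. Means were 79.1 ± 30.1 and 42.8 ± 15.2 (SD, n = 3 each), a ratio of 1.85. The log2 fold change of 0.86 (SE 0.39, 95% interval -0.02 to 1.74) did not pass the limma test (adjusted p = 0.149, exact permutation p = 0.2), and an interval that reaches from no difference to more than 3-fold (3.33) does not show equal levels.

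Levels of different members were compared per kilobase of the median protein-coding transcript. In MHCII hiCX3CR1- cells the means per kilobase were 78.0 ± 60.0 for Ebi3, 59.8 ± 13.5 for Il15, 51.3 ± 19.5 for Il15ra, 36.5 ± 26.9 for Il12b, 23.8 ± 3.36 for Il23a, 6.44 ± 8.06 for Il12a and 1.30 ± 2.26 for Il27 (SD, n = 3 each). Ranges of neighbours in this order overlapped except between Il23a (20.0 to 26.4) and Il12a (0 to 15.5). In MHCII hiCX3CR1+ cells the means per kilobase were 195 ± 11.0 for Ebi3, 52.1 ± 21.6 for Il15, 33.4 ± 13.0 for Il23a, 27.7 ± 9.88 for Il15ra, 16.2 ± 13.8 for Il12b, 9.05 ± 0.582 for Il27 and 0 for Il12a. Ebi3 (185 to 207 per kilobase) stood apart from Il15 (36.1 to 76.7), and Il27 (8.61 to 9.71) stood apart from Il12a, whereas the ranges from Il15 to Il27 overlapped from neighbour to neighbour. With the longest coding transcript as the length, Il15 ranked 3 in both populations.

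**Figure D2:**
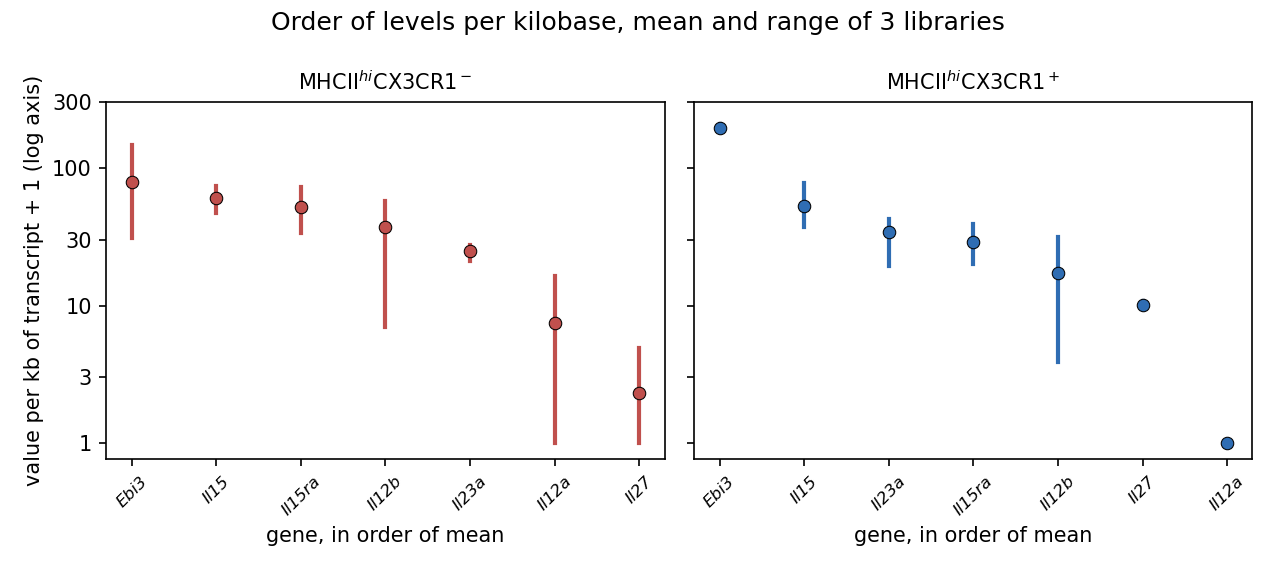
Mean (points) and range (bars) over 3 libraries of the expression value per kilobase of transcript plus 1 (log axis), for MHCII hiCX3CR1- cells at left and MHCII hiCX3CR1+ cells at right. Genes are in the order of their mean, and Ebi3 has the highest mean in both panels, 78.0 at left, where its range overlaps that of Il15, and 195 per kilobase at right.

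Set among all tested genes by mean expression value, with no correction for length, Ebi3 stood at percentile 70.4, Il15 at 50.7, Il15ra at 48.1, Il12b at 42.8 and Il23a at 36.3. Il12a and Il27, which were not tested, are not placed here.

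The genes whose profile over the 6 libraries was nearest to each tested member were taken from 10208 genes with a mean of at least 50, by Euclidean distance of centred log2 values. Nearest to Ebi3 were Dram1 (distance 0.388), Gpr165 (0.496) and Cables1 (0.522). Dram1, a lysosomal membrane protein gene, had values of 22.1, 36.6 and 79.9 in MHCII hiCX3CR1- replicates 1, 2 and 3 and of 102, 114 and 115 in the MHCII hiCX3CR1+ replicates. Among those nearest to Il23a were Pgghg (distance 0.260) and EU599041 (0.288), and nearest to Il15 were Vmn1r206 (0.343), Scai (0.358) and Olfr1183 (0.358). Nearest to Il15ra were Gm45187 (distance 0.368), AC122840.1 (0.400) and Daam2 (0.456). Nearest to Il12b were Wdhd1 (distance 1.62, Pearson r 0.928) and Lrrc32 (1.69, r 0.928), and the distance grows with the wide spread of Il12b itself.

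The transcripts that receive or relay these cytokines were described with lists of 46 genes, of which 37 were tested, 6 were called higher and 7 lower in MHCII hiCX3CR1- cells, beside 12.2% higher and 8.15% lower among all tested genes. Their median log2 fold change was -0.51, against -0.0035 for all tested genes. Among the receptor genes, 2 of 7 tested were called higher and 1 lower (12.2% and 8.15% of all tested genes), with a median of 0.61. Il27ra, the IL-27-specific receptor chain, had values of 83.1, 97.4 and 37.8 in MHCII hiCX3CR1- replicates 1, 2 and 3 and of 3.26, 2.48 and 1.43 in the MHCII hiCX3CR1+ replicates. It was higher in every MHCII hiCX3CR1- library, and only replicate 1 of the MHCII hiCX3CR1+ cells was clearly above the floor of 3 reads. Its log2 fold change was 4.37 (SE 0.56, limma adjusted p = 0.000338) and 2.66 with a pseudocount of 10, opposite in direction to the IL-27 subunits Ebi3 and Il27. Il6st, the chain it pairs with, was abundant in both populations at 834 ± 178 and 1016 ± 179 (SD, n = 3 each) and was not called (log2 fold change -0.29, 95% interval -0.75 to 0.17).

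Of the IL-12 receptor chains, Il12rb2 was at 37.4, 20.3 and 8.68 in MHCII hiCX3CR1- replicates 1, 2 and 3 and at 7.16, 2.54 and 1.46 in the MHCII hiCX3CR1+ replicates. The groups did not overlap, but the log2 fold change of 2.27 narrowly missed the threshold (limma adjusted p = 0.0598). The Il12rb2 log2 fold change was 1.15 with a pseudocount of 10 and 2.79 without MHCII hiCX3CR1- replicate 3, and its adjusted p was above 0.05 in 11 of 14 alternatives (0.0290 to 0.207 over all), while without MHCII hiCX3CR1- replicate 1 it was not tested (mean 8.03). Il12rb1, which IL-12 and IL-23 receptors share, was near the filter in both populations at 11.9 ± 7.38 and 12.2 ± 6.02 (SD, n = 3 each), and Il23r was not analysed here. The IL-15 signalling chain Il2rb was at 7.31, 26.8 and 17.0 in MHCII hiCX3CR1- replicates 1, 2 and 3 and at 0 in all MHCII hiCX3CR1+ libraries, with a mean under that for testing. Its partner Il2rg was at 475 ± 126 and 307 ± 56.6 (SD, n = 3 each) and was not called (log2 fold change 0.61, adjusted p = 0.102). For the IL-22 receptor, Il22ra1 was higher in MHCII hiCX3CR1- cells, at 25.2 ± 16.6 against 0.780 ± 0.719 (SD, n = 3 each), and the log2 fold change was 3.68 (adjusted p = 0.0147). All 3 MHCII hiCX3CR1+ values of Il22ra1 were under the floor of 3 reads, so that the size of this fold change depends on the pseudocount (1.57 with a pseudocount of 10). Without MHCII hiCX3CR1+ replicate 2 the Il22ra1 log2 fold change was 3.31 and its adjusted p 0.0521. Without MHCII hiCX3CR1- replicate 1 or 2 its mean of 9.73 or 7.71 was under that for testing, so that no call could be made. Il10rb, the chain that IL-22 and IL-10 receptors share, was lower, at 180 ± 53.6 against 841 ± 110 (SD, n = 3 each), and the log2 fold change was -2.25 (adjusted p = 0.000129).

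Among the JAK-STAT genes, 3 of 11 tested were called higher and 0 lower in MHCII hiCX3CR1- cells (12.2% and 8.15% of all tested genes), with a median log2 fold change of 0.10. These were Jak2 (1.55, adjusted p = 0.000220), Cish, a feedback inhibitor of cytokine signalling (1.74, adjusted p = 0.00593), and Stat4, which acts below the IL-12 receptor (1.19, adjusted p = 0.0273). Stat4 values were 188, 185 and 160 in MHCII hiCX3CR1- replicates 1, 2 and 3 and 51.8, 68.9 and 129 in the MHCII hiCX3CR1+ replicates. Its groups did not overlap, but its adjusted p was 0.0733 without MHCII hiCX3CR1- replicate 1, 0.0570 without MHCII hiCX3CR1- replicate 2, 0.107 without MHCII hiCX3CR1+ replicate 1 and 0.0974 without MHCII hiCX3CR1+ replicate 2. The Stat4 log2 fold change in these fits was 1.15, 1.16, 0.90 and 1.11 in the same order. Jak1 (-0.61, adjusted p = 0.0140), Stat3 (-0.81, adjusted p = 0.00281) and Socs3 (-0.93, adjusted p = 0.0143) had lower values in MHCII hiCX3CR1- cells at a size under the fold threshold. Over 16 alternatives the Socs3 log2 fold change ran from -1.18 to -0.55 and its adjusted p from 0.00273 to 0.103, above 0.05 in 5. For Jak1 the log2 fold change ran from -0.68 to -0.22 and the adjusted p from 0.00985 to 0.279, above 0.05 in 4. For Stat3 they ran from -0.91 to -0.35 and from 0.00188 to 0.101, above 0.05 in 1. Quantile normalization gave the smallest size for each of these 3 genes.

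Of the 16 tested transcription factor and RNA-binding genes known to act on the subunit genes, 1 was called higher and 4 lower in MHCII hiCX3CR1- cells (12.2% and 8.15% of all tested genes), with a median log2 fold change of -0.72. The gene called higher was Irf4 (1.64, adjusted p = 0.000154). Called lower were Cebpb (-2.27, adjusted p = 0.000158), Id2 (-1.81, adjusted p = 0.00141), Spi1, which encodes PU.1 (-1.24, adjusted p = 0.000521), and Zfp36, which encodes the mRNA-destabilizing protein tristetraprolin (-1.36, adjusted p = 2.0e-05). The NF-kB subunit genes all had negative log2 fold changes under the fold threshold, namely Nfkb1 (-0.97), Rel (-0.92), Rela (-0.86), Nfkb2 (-0.80) and Relb (-0.62). Their limma adjusted p was 0.00806, 0.00208, 0.0282, 0.0423 and 0.0836 in the same order. Over 16 alternatives the log2 fold change ran from -1.21 to -0.55 for Nfkb1, -1.06 to -0.41 for Rel and -1.11 to -0.68 for Rela. The adjusted p was above 0.05 in 2 of these for Nfkb1 (up to 0.0662), 1 for Rel (0.0805), 8 for Rela (up to 0.125) and 8 for Nfkb2 (up to 0.180). Irf8, which with Batf3 marks the dendritic cells best known for IL-12, was at 807 ± 102 and 938 ± 28.3 (SD, n = 3 each), with a log2 fold change of -0.22 (95% interval -0.60 to 0.15) that turned to 0.10 under quantile normalization. Batf3 was at 125 ± 49.3 and 59.4 ± 11.2 (SD, n = 3 each), with a log2 fold change of 1.01 and an adjusted p of 0.0506, and the adjusted p was above 0.05 in 13 of 16 alternatives (0.0210 to 0.165 over all). Irf1, an inducer of Il12a, Il27 and Il15 in macrophages, differed by -0.64 on the log2 scale (adjusted p = 0.0419), under the fold threshold, and its adjusted p was above 0.05 in 8 of 16 alternatives (0.0204 to 0.353 over all), with a log2 fold change of -0.31 under quantile normalization.

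**Figure D3:**
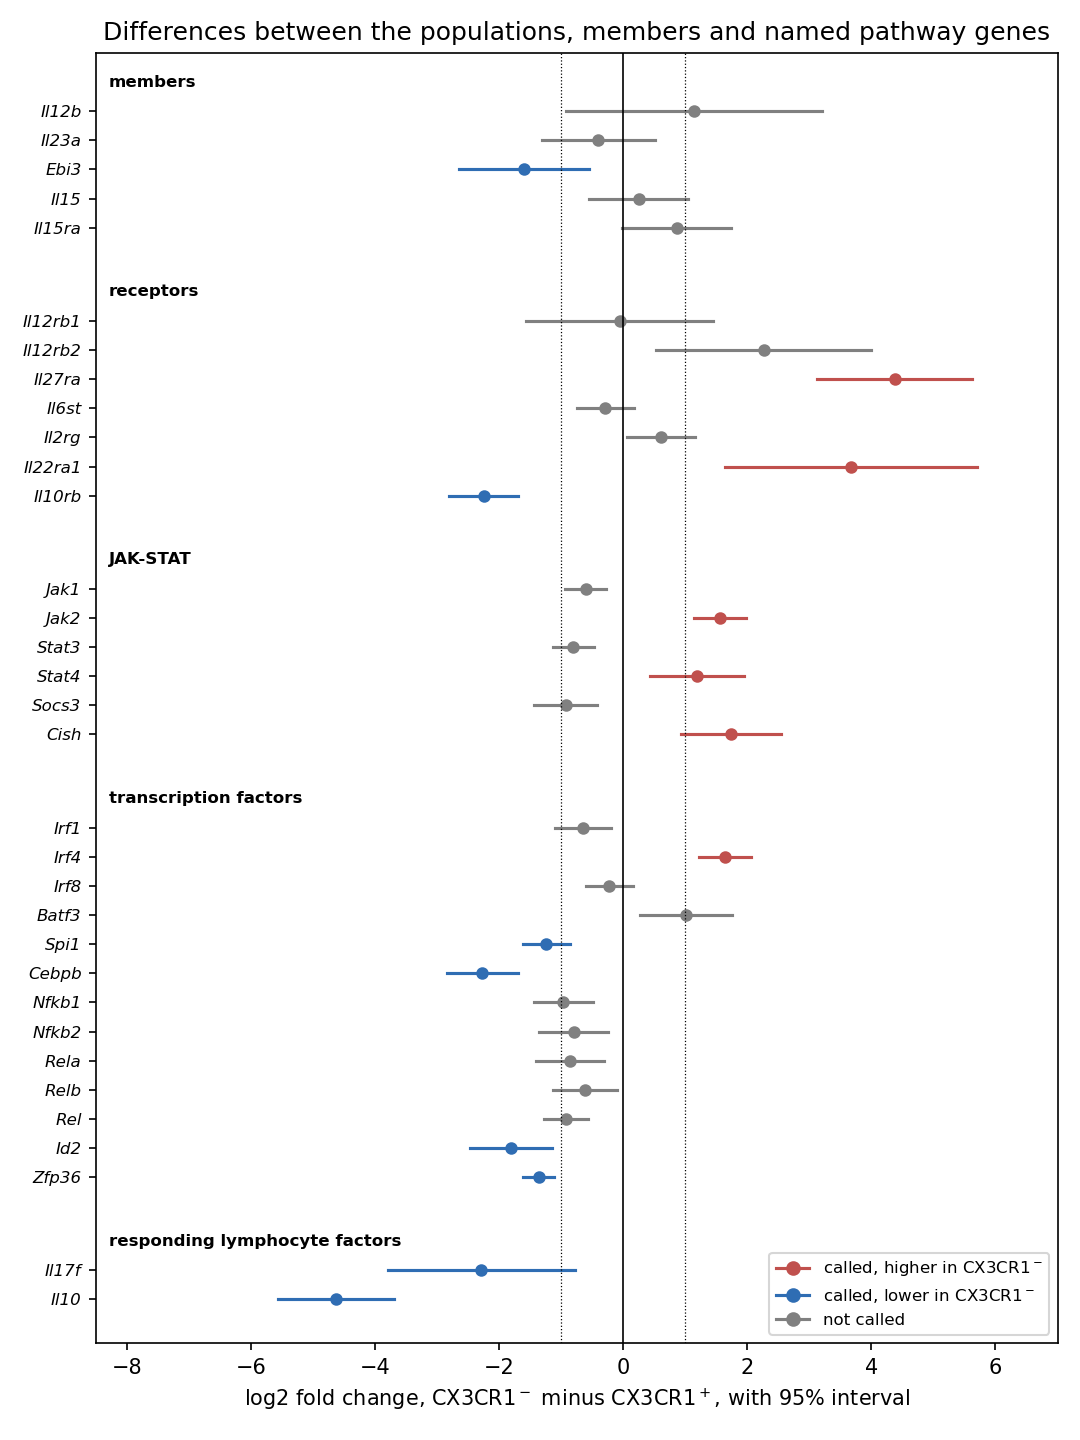
Log2 fold change (MHCII hiCX3CR1- minus MHCII hiCX3CR1+) with its 95% interval for the 5 tested members and 28 of the 37 tested pathway genes, those named in the text. Colours mark genes called higher or lower, grey marks genes not called, and dotted lines mark a log2 fold change of 1 in each direction. Ebi3 at -1.60 is the member called, and Il27ra at 4.37 is the furthest to the right.

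Of the cytokines and lineage factors of responding lymphocytes, 3 of 9 were tested, 0 were called higher and 2 lower in MHCII hiCX3CR1- cells (12.2% and 8.15% of all tested genes), with a median of -2.29. Il10, which is also a macrophage product, was at 25.0, 68.0 and 27.9 in MHCII hiCX3CR1- replicates 1, 2 and 3 and at 560, 1287 and 1110 in the MHCII hiCX3CR1+ replicates. Its log2 fold change was -4.64 (SE 0.42, limma adjusted p = 3.7e-05). For Il17f the log2 fold change was -2.29 (adjusted p = 0.0324), from means of 4.35 ± 3.40 and 22.2 ± 5.27 (SD, n = 3 each). Its values in MHCII hiCX3CR1- replicates 1, 2 and 3 came from about 7.77, 0.834 and 3.47 reads, with replicate 2 under the floor of 3 reads. Over 15 alternatives the Il17f log2 fold change ran from -3.14 to -1.18. The Il17f adjusted p was 0.101, 0.138 and 0.163 without MHCII hiCX3CR1+ replicates 1, 2 and 3. Its log2 fold change in these fits was -2.45, -2.30 and -2.12 in the same order. Ifng, Il17a and Il22 were not analysed here.

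The label of the cells was compared with marker lists. Among all tested genes 12.2% were called higher and 8.15% lower in MHCII hiCX3CR1- cells, which applies to each count below. Cx3cr1, the gene behind the sort, was at 23.6 ± 4.80 and 366 ± 17.5 (SD, n = 3 each) and is not counted, since the sort fixed its direction. The other 10 macrophage genes were all called lower in MHCII hiCX3CR1- cells, with sums of 9326, 10996 and 10933 in MHCII hiCX3CR1- replicates 1, 2 and 3 and of 53361, 54981 and 49463 in the MHCII hiCX3CR1+ replicates. Mrc1 was the most abundant, and none of the 10 was at 0 in MHCII hiCX3CR1- cells. Of the shared dendritic cell genes 6 of 7 were called higher, with sums of 2185, 2354 and 2302 against 265, 331 and 305, led by H2-DMb2. Genes of mature or migratory dendritic cells were called higher for 7 of 8, with sums of 2194, 2830 and 2288 against 453, 645 and 823, led by Ccl22. For cDC1 4 of 7 were higher, with sums of 3833, 5524 and 4634 against 2071, 2039 and 2183. For cDC2 4 were higher and 1 lower of 7, and the sums of 10477, 11213 and 8461 overlapped with 9532, 10873 and 10401. Both populations thus held macrophage transcripts, and the MHCII hiCX3CR1- libraries held more transcripts of the shared, mature and cDC1 lists. The macrophage list was lower in MHCII hiCX3CR1- cells, as Ebi3 and Il10 were. The shared, mature and cDC1 lists were higher there, as Il27ra was. The part of these lists in the values of Ebi3, Il27ra and Il10 was not tested.

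Marker lists of other cell types were counted in the same way. All 9 enterocyte genes were called higher in MHCII hiCX3CR1- cells, with sums of 32147, 28358 and 17495 in replicates 1, 2 and 3 against 43.8, 22.9 and 16.0, led by Fabp2 at 18240 against 4.30. Alpi and Apoa4 were at 0 in all MHCII hiCX3CR1+ libraries. All 6 fibroblast genes were higher, with sums of 7226, 4117 and 12168 against 316, 244 and 181, led by Dcn. Of the B and plasma cell genes 5 of 6 were higher, with sums of 1564, 3783 and 1743 against 75.2, 92.5 and 60.6, led by Jchain. Monocyte genes were higher for 3 of 4, eosinophil genes for 2 of 2 tested, T, NK and innate lymphoid genes for 2 of 3 tested, neuron and glia genes for 2 of 5 tested, and Kit for mast cells. Of 5 endothelial genes 3 were higher and 1 lower, of 2 tested neutrophil genes 1 was lower, and of 5 smooth muscle genes 0 were called. Lists with 5 or fewer tested genes are given as counts and are not read as a difference in cell type. The paper describes the MHCII hiCX3CR1- population as CD45+ macrophages. It bases this on IBA-1 staining in tissue and on flow cytometry, where most of these cells carried CD11b and very few carried CD11c or CD103. It also reports higher CD103 and Flt3 transcripts in this population and proposes that contamination by dendritic cells was very low. Protein on single cells and bulk RNA are unlike measures. The part of these other cells in the values of Il15, Il15ra, Il22ra1, Il12rb2, Il27ra and Il2rb was not tested.

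Promoter windows of 250 bases before to 50 bases after the start were matched for 4 of the 8 members (RefSeq, GRCm38.p6), with 6 windows in all. The motifs searched on both strands were an NF-kB motif (GGG and CC parted by 5 bases of any kind), an IRF motif (GAAA and GAAA parted by 2 bases of any kind), AP-1 TGANTCA and PU.1 GAGGAAGT. Of 32851 promoters of this length, 50.8% held the NF-kB motif, 3.44% the IRF motif, 7.81% the AP-1 motif and 3.20% the PU.1 motif. Promoters of the related beta chains Ebi3 and Il12b are shown because the former was the member called and the latter was not. The Ebi3 window (chr17:55952373-55952672, plus strand) held 4 NF-kB matches, some of which overlap, and the Il12b window (chr11:44399813-44400112, plus strand) held 0 matches to the 4 motifs. Capitals mark the matches. A site whose letters differ from a motif was not counted, so 0 matches does not show that a window lacks binding sites.
Ebi3: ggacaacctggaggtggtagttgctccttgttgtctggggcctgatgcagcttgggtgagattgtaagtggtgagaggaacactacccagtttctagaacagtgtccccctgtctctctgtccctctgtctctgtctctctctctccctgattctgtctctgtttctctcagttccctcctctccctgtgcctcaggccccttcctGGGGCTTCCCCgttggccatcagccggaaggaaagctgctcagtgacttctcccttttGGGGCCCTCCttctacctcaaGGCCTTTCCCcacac
Il12b: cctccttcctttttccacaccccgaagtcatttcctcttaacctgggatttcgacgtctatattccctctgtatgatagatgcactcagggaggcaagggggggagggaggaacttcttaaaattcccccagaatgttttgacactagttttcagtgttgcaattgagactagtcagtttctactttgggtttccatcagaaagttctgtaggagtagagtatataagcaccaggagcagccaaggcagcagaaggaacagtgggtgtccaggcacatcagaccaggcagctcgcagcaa

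The Il12a gene had 2 windows, with 0 matches at the upstream start and 3 NF-kB matches at the downstream start, and Il15ra had 2, with 0 matches at the upstream start and 1 NF-kB and 1 AP-1 match at the downstream start. Windows for Il23a, Il27, Il15 and Il22ra2 were not used here. A match describes the sequence only, and the NF-kB motif in particular is held by about as many promoters as lack it.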

How the data were processed

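RNA-seq was measured in 6 libraries, 3 per sorted population, grouped by the sample titles. The authors sequenced unstranded TruSeq libraries as single reads, pseudoaligned them with Kallisto to the mouse transcriptome (mm10, GENCODE), brought the estimated counts to gene level with tximport and normalized between libraries with DESeq2. The deposited values are this normalized signal, not divided by length. Per library, 42.5 to 44.6% of non-zero values were a whole number of reads (within 0.01 reads), so that no count test was run. The value of 1 read gave the approximate reads and the level of 3 reads.

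Genes with a mean of at least 10 (17812 of 26110) were tested with limma 3.58.1 in R 4.3.3 (lmFit, eBayes with trend, two-sided) on log2(value + 1), which understates changes of low genes, and p-values were adjusted by Benjamini-Hochberg over all genes tested. Fold changes are MHCII hiCX3CR1- minus MHCII hiCX3CR1+. The fit was tested on simulated data. Exact two-sided permutation tests over the 6 libraries were run for single members. Positions, transcript lengths and 31-mers came from GENCODE M21 (GRCm38), promoters from RefSeq. Figures were drawn with matplotlib 3.10.9 in Python 3.11.15.

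Named genes were the 8 members, the pathway and marker lists written by hand, and the 3 genes with the most similar profile. Members and lists were chosen with earlier results of these data known, and of the 46 pathway genes 29 are named with values, chosen after their values were seen, the rest entering the counts. Some genes of these rules are not reported here. Where a symbol of a marker list was listed more than once, the row with the higher mean was used. Alternatives were pseudocounts of 0.5 and 10, no filter, a mean of 50 or more, quantile normalization, median-of-ratios rescaling, equal totals without mitochondrially encoded genes, no trend, library quality weights, no fold threshold, adjacent library numbers as a block, and leaving out each library in turn.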

Additional observations from a re-analysis of the deposited data

How the results depend on the processing

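Directions of Il12b, Il23a, Ebi3 and Il15ra were the same under all alternatives run, and the direction of Il15 turned under quantile normalization (-0.017), which moved the median of all tested genes to -0.15. Equal totals without mitochondrially encoded genes moved that median to 0.17. The number of members called was 1, and it was 0 with equal totals without mitochondrially encoded genes (Ebi3 -1.43), 0 with no intensity trend (Ebi3 -1.60) and 0 to 1 on leaving out each library, where Ebi3 ranged from -2.19 to -1.07. The cause was not tested. The log2 difference of Il27, -2.58, was -0.78 with a pseudocount of 10, by construction of the larger pseudocount. Among all genes 3628 were called (60.0% higher), and 2413 (51.1% higher) at a mean of at least 50, where 10208 genes were tested, 3390 (50.6% higher) under quantile normalization and 3634 (69.4% higher) with equal totals without mitochondrially encoded genes. Of the pathway genes 13 were called, and 21 (6 higher, 15 lower) with no fold threshold. Of 583 values of tested pathway genes under alternatives, 535 kept direction and side of the threshold, 13 lost and 13 gained the call, and 22, from 7 genes of which 0 were called, reversed. Among the named ones these were Il12rb1 (0.10 with equal totals without mitochondrially encoded genes, -0.53 to 0.31 on leaving out each library), and under quantile normalization Il6st (0.058) and Irf8 (0.10). Losses beyond those given with left-out libraries were Il22ra1 (adjusted p = 0.0711), Stat4 (0.0517) and Spi1 (log2 fold change -0.96) under quantile normalization, Stat4 with no trend (0.0681), and Il17f with the block below.

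The labels give no pairing. Adjacent library numbers hold 1 library of each population, and the correlations of their deviations from the group means were 0.104, 0.0380 and 0.0142 across genes. MHCII hiCX3CR1- replicate 3 correlated best with a library outside its pair, and the other MHCII hiCX3CR1- replicates with the library of the adjacent number. As a block, these numbers gave 3610 called genes against 3628, kept the Ebi3 call (adjusted p = 0.0173), gave adjusted p values of 0.0745 for Il12b and 0.0903 for Il15ra, and changed the calls of Il12rb2 (adjusted p = 0.0493) and Il17f (0.0521). Il12a and Il27 rest on 19 reads or fewer per library, and both are read for detection. Their fold bounds, the ratios of Ebi3 to Il27 and the Il27 log2 fold change rest on these few reads. They are not read as the size of a difference.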
